A study of Oncorhynchus mykiss with 23 samples.

Results

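The calpain and cathepsin proteolytic systems were followed in fast muscle of rainbow trout through 11 probes under 8 gene names, out of 60195 non-control probes on the array. The members were all probes whose name contains calpain, calpastatin or cathepsin. Of these, 4 carry the name in the scanner output (calpain_1, calpain_2, calpastatin and cathepsine). The files do not give the cathepsin type of cathepsine, so it may not be a separate gene. The other 7 are named in the study's heat map file. These are 1 probe of CAPNS1, the calpain small subunit, and 2 probes each of the cathepsin genes CTSB, CTSD and CTSL. That file lists probes that the study selected as differing across feeding conditions on these same arrays, so a change of those 7 is not independent evidence. The copy of the file read here was shortened, so other calpain or cathepsin probes may be on the array without a name. The probes were designed on expressed sequence contigs and are tied here to no single gene copy or genome position, and near-identical copies in the trout genome could share a probe's signal.

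The trout were 1-year-old fish of a spring strain, and each array held fast muscle from beneath the dorsal fin of 1 fish. The 5 groups were F0 (30 days without food, 5 fish), RF4, RF11 and RF36 (the same fast, then 4, 11 or 36 days of refeeding at a raised ration, with 5, 5 and 4 fish) and C0 (fed to satiation throughout, 4 fish). The text of the study gives another fasting length for the refed fish in 1 place, and 30 days is the value in its methods and in the labels. All fasted and refed fish came from 1 tank and all controls from another, and the control arrays hold only fish sampled at day 30. Feeding and tank, and for the refed fish also sampling day, therefore cannot be told apart in comparisons with C0. Among the fasted and refed groups, days of refeeding and sampling day rose together, so these cannot be told apart either.

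Calpains are calcium-dependent cysteine proteases of the cytosol. The classical forms pair a large catalytic subunit with the small subunit encoded by CAPNS1, and calpastatin is their specific inhibitor. Cathepsins are proteases of the lysosome, with CTSB and CTSL of the cysteine class and CTSD of the aspartic class, and in wasting muscle they degrade material that autophagy delivers. Both systems act beside the proteasome in the breakdown of muscle protein during food deprivation.

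Levels are log2 signals after subtraction of each array's own 75th percentile, so a difference of 1 is a doubling, and levels of different probes are not compared. Group differences are from limma with Benjamini-Hochberg adjustment over the 34200 probes tested and are called at an adjusted p under 0.05. All 11 members were tested. Of them, 10 were well above background on all 23 arrays, and the dimmer CTSB probe on 20. No spot was saturated.

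Markers of muscle fibres and of other cell types also differed between the groups. Of 14 probes of fast muscle proteins (parvalbumin, skeletal actin and creatine kinase), all among the probes that the study selected on these arrays, 12 were lower and 2 higher in F0 than in C0. The log2 of their summed signal, in which the brightest probes weigh most, was 10.6 to 11.3 on the F0 arrays and 11.7 to 12.7 on the C0 arrays. Fibroblast markers were 18 probes of type I collagen, decorin and periostin, selected in the same way. The log2 of their summed signal was 7.43 to 8.83 in F0 and 9.85 to 10.8 in C0, with 17 probes lower and none higher. After refeeding the fast muscle sum was 10.8 to 11.8 in RF4, 12.1 to 12.6 in RF11 and 12.2 to 12.9 in RF36. Against F0, 1 of the 14 probes was higher and 1 lower at RF4, and 12 were higher and 2 lower at RF11 and at RF36. The probes going the other way included creatine kinase (CKM), with 1.55 in F0 against C0 and -1.33 in RF36 against F0. A further 3 fast myosin probes have names in the scanner output, and none is named in the heat map rows read. For F0 against C0, limma called 3 of these lower, with a median difference of -0.98. Against F0, none was called at RF4, 1 was higher at RF11 and 3 at RF36, with medians of 0.055, 0.26 and 0.93. Against C0, 3 were lower at RF4, 1 at RF11 and none at RF36, with medians of -0.85, -0.72 and -0.0083. The fibroblast sum was 8.76 to 9.89 in RF4, 9.22 to 10.3 in RF11 and 10.3 to 10.9 in RF36, with 15, 17 and 17 of the 18 probes higher than in F0 and 1 lower each time. The brighter of 2 slow-fibre probes ranged from -1.71 to 8.97 among the 4 controls, with the highest value on C0-3, and from -0.89 to 4.85 in F0. In refed fish it was 7.30 on RF4-3, 5.20 on RF11-4 and -1.16 to 1.77 on the other arrays. No tested probe was named for a marker of erythrocytes or of leukocytes, the latter being rich in cathepsins. The part of cell makeup in the results below was not tested, and in such bulk samples fewer cells of a type and less RNA per cell cannot be told apart. The control array C0-1 stood apart in its match to the heat map file. Over the 1232 heat map rows read it matched none of the control columns, while every other array matched a column closely. The study discarded a control sample that gave no array signal, without naming it. On C0-1, 66.8% of spots were well above background. Its median correlation with its own group, 0.933, was the lowest of the 23, with C0-3 at 0.9374 and C0-2 at 0.9435. C0-1 also held the lowest control level of 9 of the 11 members. The main differences from C0 are therefore also given without it.

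Across the 5 groups, 9 of the 11 members differed (moderated F test in limma), against 45.8% of all probes tested. The 2 that did not pass were calpain_1 and calpain_2, with adjusted p of 0.303 and 0.642. These names, given in the scanner output alone, read as catalytic subunits, and which calpain gene each probe measures is not settled here. All 9 members that differed had their highest group mean in F0. Of the 4 members named in the scanner output, 2 passed, calpastatin and cathepsine.

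The level of calpain_1 was 0.84, 0.18, 0.17, 0.58 and 1.32 on the F0 arrays and 0.13, 0.95, 1.42 and 0.90 on the C0 arrays. After refeeding it was 0.96, 1.21, 1.41, 1.30 and 1.20 in RF4, -0.045, 0.70, 1.17, 1.02 and 0.87 in RF11 and -0.078, 0.24, 0.79 and 1.36 in RF36. The groups overlapped throughout, although 4 of the 5 RF4 fish lay between 1.20 and 1.41, a range that only 1 F0 fish reached. The difference of F0 from C0 was -0.23 (95% interval -0.86 to 0.40, adjusted p = 0.662), and that of RF4 from F0 was 0.60 (interval 0.0055 to 1.19, adjusted p = 0.141).

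For calpain_2 the level was 2.07, 2.01, 2.25, 1.76 and 1.79 in F0 and 1.59, 1.51, 2.42 and 2.10 in C0. Refed fish lay in the same range, from 1.62 to 2.46. Its F0 to C0 difference was 0.072, with an interval of -0.33 to 0.48, which leaves out the 1.39 of the CAPNS1 probe. Sizes of change need not compare between probes, as the 2 CTSB probes gave 2.00 and 1.17. Without C0-1 the F0 to C0 difference was -0.47 for calpain_1 (adjusted p = 0.340) and -0.033 for calpain_2 (adjusted p = 0.947), so that of calpain_2 changed sign. None of the 9 comparisons called calpain_1 or calpain_2.

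CAPNS1, whose product stabilises the catalytic subunits, was highest in fasted fish. Its level was 5.99, 6.28, 6.31, 6.22 and 6.36 on the F0 arrays and 4.11, 5.21, 5.08 and 4.98 on the C0 arrays. In RF4 it was 4.77, 5.13, 4.82, 4.95 and 4.75, in RF11 4.65, 4.70, 5.05, 4.98 and 4.86 and in RF36 4.76, 4.90, 4.88 and 4.85. Every F0 fish lay above every fish of the other groups, and the 14 refed fish together spanned only 4.65 to 5.13. F0 exceeded C0 2.61-fold (log2 1.39, SE 0.18, adjusted p = 9.83e-06) and 2.21-fold without C0-1. At RF4 the level was 2.54-fold below F0 (log2 -1.35, SE 0.17, adjusted p = 3.25e-06), and it then stayed within the spread between fish, with differences of -0.037 (interval -0.39 to 0.32) from RF4 to RF11 and 0.0025 (interval -0.37 to 0.38) from RF11 to RF36.

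Calpastatin, the inhibitor, was also highest in fasted fish. It stood at 6.71, 7.84, 7.36, 6.52 and 7.79 in F0 and 4.47, 4.98, 5.79 and 5.72 in C0. In RF4 it was 5.45, 6.47, 7.22, 6.78 and 6.18, in RF11 6.12, 5.62, 5.30, 6.42 and 5.52 and in RF36 5.27, 4.98, 5.34 and 4.92. F0 and RF4 fish overlapped widely, F0 and RF11 fish did not overlap, and the RF36 fish were the most alike. F0 was 4.02-fold above C0 (log2 2.01, SE 0.35, adjusted p = 0.000253) and 3.36-fold without C0-1.

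The difference of calpastatin between RF4 and F0, -0.82 (SE 0.33), did not pass the test (adjusted p = 0.0746). It passed without F0-5 (adjusted p = 0.0356) or without RF4-4 (0.0311), and within slide 3, which held both of these arrays, the difference was 0.063 and not negative. At RF11 the level was 2.73-fold below F0 (adjusted p = 0.00178) and at RF36 4.34-fold (adjusted p = 7.49e-05). RF4 was still 2.27-fold above C0 (adjusted p = 0.016), but this call was lost without C0-1 (log2 0.92, adjusted p = 0.0753).

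**Figure D1:**
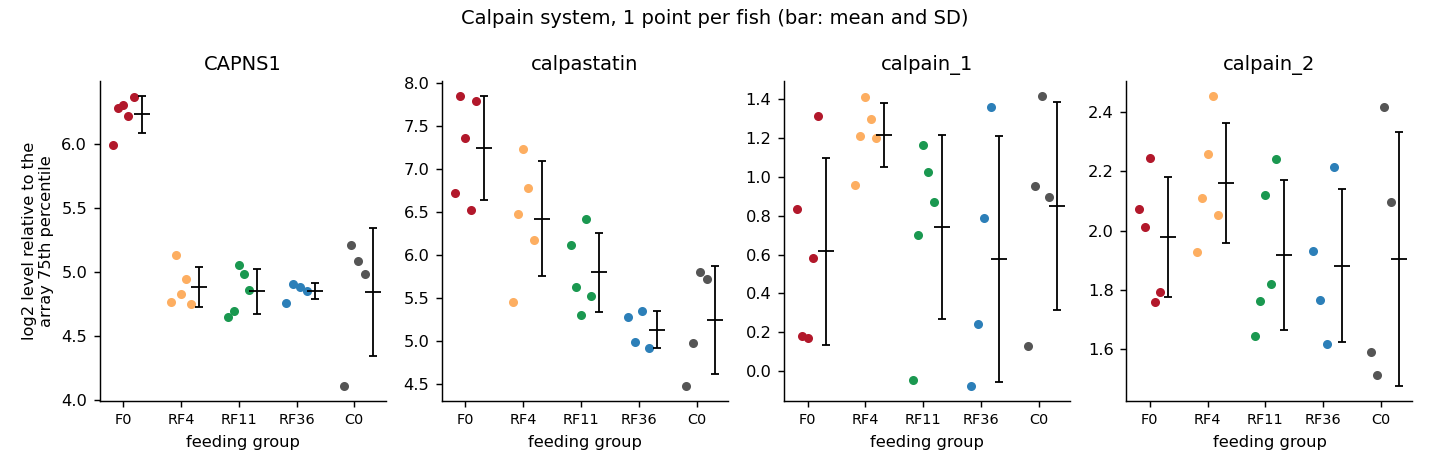
Log2 level relative to the array's 75th percentile (y axis, a separate scale in each panel) of 4 calpain system genes in each of the 5 feeding groups (x axis), with 1 point per fish and the group mean with its SD in black. The F0 fish lie above all others for CAPNS1, calpastatin steps down from F0 to RF36, and the groups of calpain_1 and calpain_2 overlap.

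CTSB, an abundant lysosomal cysteine protease, had brighter-probe levels of 7.22, 8.02, 7.73, 6.98 and 7.84 in F0 and 4.90, 6.06, 5.42 and 5.86 in C0. The RF4 fish had 6.03, 6.12, 6.29, 6.30 and 6.00, the RF11 fish 5.30, 5.04, 4.98, 5.66 and 5.04 and the RF36 fish 5.40, 5.46, 5.49 and 5.35. F0 fish did not overlap any other group, and RF4 and RF11 did not overlap each other. F0 exceeded C0 4.00-fold (log2 2.00, SE 0.23, adjusted p = 1.9e-06), and 3.43-fold without C0-1.

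The brighter CTSB probe fell at RF4 and was lower again at RF11. Its level was 2.66-fold below F0 at RF4 (adjusted p = 2.91e-05) and 5.12-fold below at RF11 (adjusted p = 2.85e-08). The step from RF4 to RF11 was -0.94 (SE 0.21, adjusted p = 0.0244), the only member call of that comparison. It was lost when any of RF4-3, RF4-4, RF4-5, RF11-2, RF11-4 or RF11-6 was left out (adjusted p 0.0503 to 0.0642), and with scaling to the array median (adjusted p = 0.193).

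The dimmer CTSB probe gave a smaller F0 to C0 difference, 1.17 (adjusted p = 0.00275), and a similar fall at RF4, -1.49 (adjusted p = 9.43e-05). It did not show the second step (-0.31, adjusted p = 0.68). However, the dimmer probe was not well above background on RF11-4, RF36-2 and RF36-3, which limits how far a further fall could be measured. Against C0 the RF4 mean was 0.58 for the brighter and -0.32 for the dimmer probe, neither called with the main settings (adjusted p = 0.0618 and 0.399), so the pair differed in sign there. Without C0-1 these were 0.36 and -0.21, and the F0 to C0 difference of the dimmer probe was 1.27. The RF4 to C0 difference of the brighter probe was called under 8 of 33 alternative settings. Among these were array median scaling, quantile normalization and normexp background correction (limma adjusted p = 0.0454, 0.0458 and 0.00377). It was not called without C0-1 (adjusted p = 0.258).

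CTSD, the main aspartic protease of the lysosome, had brighter-probe levels of 3.06, 3.52, 3.27, 2.22 and 4.09 in F0 and 0.70, 1.23, 1.89 and 1.44 in C0. In RF4 they were 1.33, 1.64, 1.84, 2.67 and 2.05, in RF11 1.35, 1.55, 1.25, 1.71 and 1.46 and in RF36 0.86, 0.98, 1.73 and 1.13. Among the F0 fish F0-5 was lowest and F0-7 highest, and RF4-5, at 2.67, lay above F0-5. F0 was 3.77-fold above C0 (log2 1.92, SE 0.31, adjusted p = 0.000122) and 3.27-fold without C0-1.

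From F0, CTSD fell 2.50-fold by RF4 (adjusted p = 0.00166), 3.41-fold by RF11 (adjusted p = 7.26e-05) and 4.16-fold by RF36 (adjusted p = 2.77e-05). The steps between refed groups, -0.44 and -0.29, were not called. Its other probe gave the same calls in all 9 comparisons, with a F0 to C0 difference of 1.96.

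CTSL encodes cathepsin L, a lysosomal cysteine protease. Its brighter-probe levels were 5.35, 6.61, 6.18, 5.77 and 7.32 in F0 and 4.42, 4.94, 5.03 and 5.79 in C0. They dropped to 4.07, 4.43, 3.57, 3.96 and 4.50 in RF4 and 3.30, 3.71, 3.46, 3.72 and 3.62 in RF11, and stood at 4.78, 5.26, 5.11 and 4.87 in RF36. The RF11 fish lay below every control and below every RF36 fish, whereas RF36 and C0 overlapped throughout, and C0-4 lay within the F0 range.

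F0 exceeded C0 in CTSL by 2.30-fold (log2 1.20, SE 0.31, adjusted p = 0.00744), and by 1.99-fold without C0-1 (adjusted p = 0.0356). The other CTSL probe differed by 1.02 (adjusted p = 0.0143), a call lost without C0-1 (0.78, adjusted p = 0.0674). With only F0 and C0 in the model, neither CTSL probe was called (limma adjusted p = 0.0824 and 0.108). Refeeding was followed by a 4.40-fold fall at RF4 (adjusted p = 7.87e-06) and a 6.42-fold fall at RF11 (log2 -2.68, SE 0.29, adjusted p = 3.29e-07).

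At RF11, CTSL was 2.79-fold below C0 (log2 -1.48, SE 0.31, adjusted p = 0.0014), and 2.90-fold by the other probe (adjusted p = 0.000513). Without C0-1 these log2 differences were -1.69 and -1.77. The same comparison at RF4 gave -0.94 and -0.98 (adjusted p = 0.029 and 0.0154), and -1.15 and -1.21 without C0-1. Slide 2 held only RF4-3 and C0-1 of these groups, and these 2 arrays differed by 0.019 and 0.041. Slides 1 and 3 gave -0.65 and -1.65 for the brighter probe, with C0-2 the only control on slide 1. Scaling to the array median, which adds 0.28 to every difference of RF4 from C0, gave -0.65 and -0.70 and ended both calls (adjusted p = 0.231 and 0.182). Leaving out C0-4 also ended both (adjusted p = 0.116 and 0.0694), and the call of the brighter probe was further lost without RF4-4, RF4-5 or C0-2 (0.0751, 0.0579 and 0.05002). With only RF4 and C0 in the model both were lost too (limma adjusted p = 0.0539 and 0.0501). Of 33 alternative settings, 10 ended the call of the brighter probe and 5 that of the other.

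From RF11 to RF36, CTSL rose 2.72-fold (log2 1.44, SE 0.31, adjusted p = 0.00632) and 2.72-fold by the other probe (adjusted p = 0.00366). Within the 3 slides the rise of the brighter probe was 1.32, 1.48 and 1.39. RF36 and C0 differed by -0.039 (interval -0.71 to 0.63), and by -0.25 without C0-1.

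The probe named cathepsine had levels of 7.16, 7.81, 7.48, 6.27 and 7.80 in F0 and 4.96, 6.22, 5.69 and 5.72 in C0. In RF4 they were 5.67, 6.29, 6.25, 6.41 and 5.98, in RF11 5.86, 5.42, 5.82, 5.65 and 5.41 and in RF36 5.35, 5.96, 6.23 and 5.76. Of the F0 fish only F0-5 came within the range of another group, overlapping RF4. F0 exceeded C0 3.16-fold (log2 1.66, SE 0.28, adjusted p = 0.000202) and 2.69-fold without C0-1. The fall from F0 was 2.28-fold at RF4 (adjusted p = 0.00185), 3.20-fold at RF11 (adjusted p = 4.33e-05) and 2.79-fold at RF36 (adjusted p = 0.000352). Its change from RF11 to RF36, 0.20 (interval -0.39 to 0.78), did not pass the test.

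**Figure D2:**
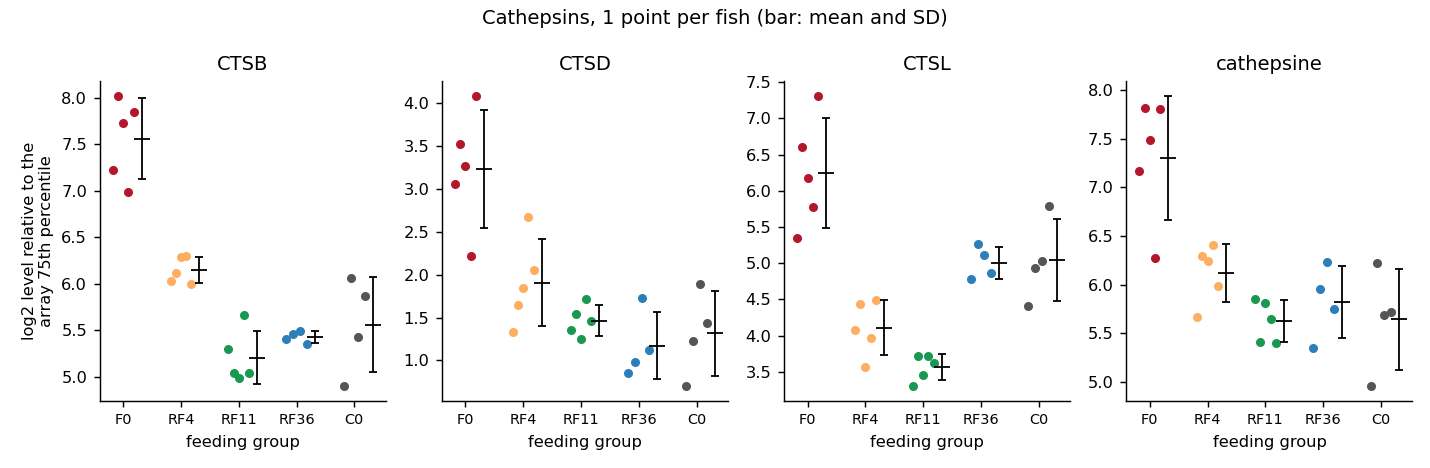
Log2 level relative to the array's 75th percentile (y axis, a separate scale in each panel) of CTSB, CTSD and CTSL (the brighter of their probes) and of the probe named cathepsine in the 5 feeding groups (x axis), with 1 point per fish and the mean with its SD in black. The F0 fish are highest on average in all panels, and only CTSL is lower at RF11 than in every control fish.

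Counted over members, F0 against C0 called 9 of 11 higher and none lower, beside 11.4% higher and 8.92% lower of all probes tested. The median member difference was 1.39 and that of all probes 0.0024. As 7 of the 9 were selected by the study on these arrays, neither contrast with all probes is independent evidence. Of the 4 members named in the scanner output, 2 were called. CTSB, CTSD and CTSL each enter with 2 probes. Of the 9 called members, 7 had no overlap between F0 and C0 fish, a count given without the share of all probes. Without overlap the sign is the same on every slide by necessity. The other called members also kept their sign on each of the 3 slides. Without C0-1 the count was 8, and without C0-3 it was 9.

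Refeeding gave the opposite counts. RF4 against F0 called none higher and 8 lower (13.6% and 9.68% of all probes), RF11 against F0 none and 9 (15.0% and 12.0%) and RF36 against F0 none and 9 (18.2% and 14.5%). The median member differences were -1.35, -1.72 and -1.48, against medians of -0.073, -0.069 and -0.0023 over all probes. Of the 4 members named in the scanner output, 1, 2 and 2 were called. The other calls were of probes that the study selected on these arrays. All called members kept their sign on the 3 slides, as they must where the groups do not overlap. These comparisons share the F0 arrays with each other and with the comparison to C0, so their counts are not separate lines of evidence.

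Between refed groups few members were called. The median member difference was -0.47 for RF11 against RF4 and 0.0025 for RF36 against RF11, beside -0.0014 and 0.047 over all probes. Most members were selected by the study on these arrays, so neither contrast with all probes is independent evidence. RF11 against RF4 called 0 higher and 1 lower, the brighter CTSB probe, beside 1.19% and 0.746% of all probes. RF36 against RF11 called 2 higher, both CTSL probes, and none lower, beside 2.73% and 3.18%.

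Against the controls, RF4 had 1 member higher, calpastatin, and 2 lower, both CTSL probes, beside 15.5% and 9.92% of all probes. Of these 3 calls, 1 had the same sign on all 3 slides, and in 0 of the 3 were the groups free of overlap. The CTSL probes changed sign only on slide 2, where C0-1 was the only control array. Which members were called also depended on the scaling. With array median scaling and with the authors' deposited values, 2 were called, calpastatin and the brighter CTSB probe, both higher. The CTSB difference was 0.87 under each (limma adjusted p = 0.0454), and neither CTSL probe was called. RF11 had none higher and 2 lower, again the CTSL probes, beside 14.0% and 6.71%. RF36 had 0 calls in either direction by limma, beside 9.24% higher and 3.22% lower of all probes. None of the 11 had an unadjusted limma p under 0.05 there. The intervals of the RF36 to C0 differences were wide, for example -0.87 to 0.65 for calpastatin, so differences within them are not excluded.

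**Figure D3:**
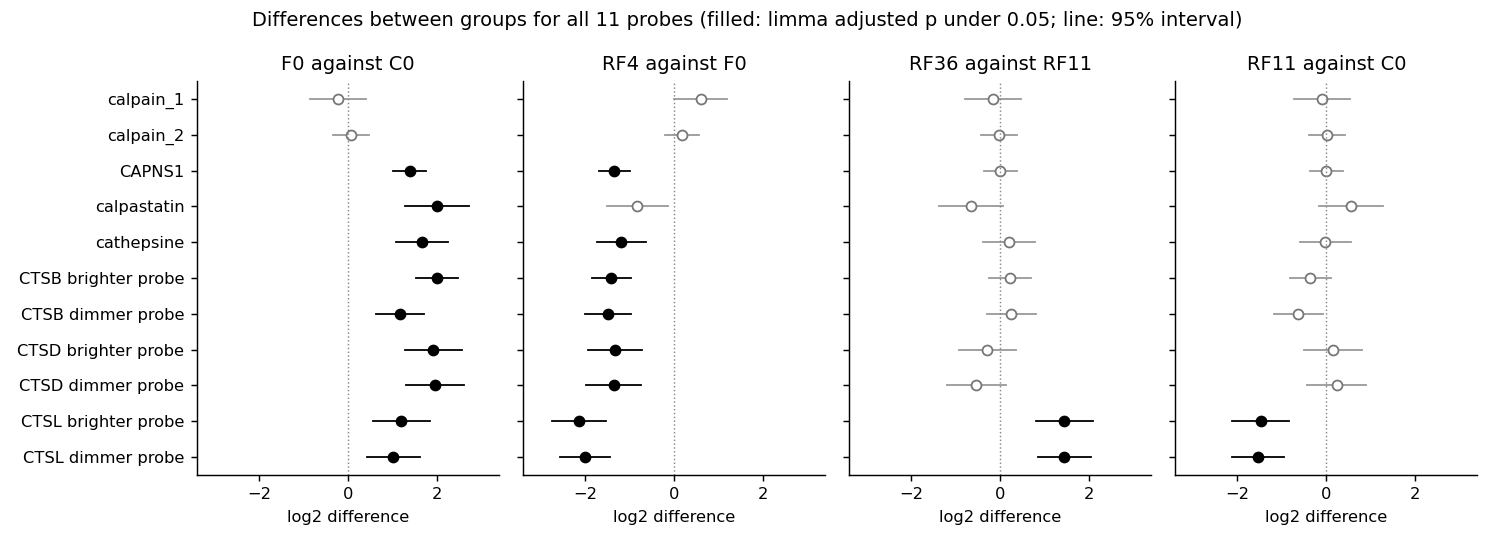
Log2 difference (x axis) of each of the 11 probes (y axis) in 4 comparisons, with its 95% interval, filled where the limma adjusted p was under 0.05. The probes calpain_1 and calpain_2 are filled in none of the 4 panels, 9 probes are filled to the right of 0 in F0 against C0, and only the CTSL probes are filled in RF36 against RF11 and in RF11 against C0.

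Whether the genes fell by different amounts was asked with the within-fish difference of 2 probes, compared between F0 and a refed group by an exact two-sided permutation test over fish, for 6 gene pairs at 3 times (18 tests, Benjamini-Hochberg adjusted). At RF11, CTSL fell more than CAPNS1 by 1.30 (SE 0.30, adjusted p = 0.0476) and more than CTSD by 0.92 (SE 0.22, adjusted p = 0.0476), and CTSB fell more than CAPNS1 by 0.97 (SE 0.22, adjusted p = 0.0476). Each of these had the smallest exact p that 5 against 5 fish allow, 0.00794, and these calls were lost with normexp background correction (adjusted p = 0.0714 for each). They were also lost (0.0714) without any 1 of the RF11 fish, and kept without any 1 of the F0 fish. Without an RF11 fish the differences stayed at 1.22 to 1.37, 0.88 to 0.94 and 0.86 to 1.05, in the order given. The CTSB difference is that of its brighter probe. The dimmer one, which was not well above background on RF11-4, fell less at RF11 (-1.80), and its difference from CAPNS1 was not tested. At RF4 none of the 6 pairs passed, the nearest being CTSL against CAPNS1 (0.79, exact p = 0.0397, adjusted p = 0.0893). At RF36 none passed either. There, with 4 against 5 fish, CTSL stood closer to its F0 level than CTSB, by 0.89, and than CTSD, by 0.82 (adjusted p = 0.0714 and 0.0816, exact permutation test).

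**Figure D4:**
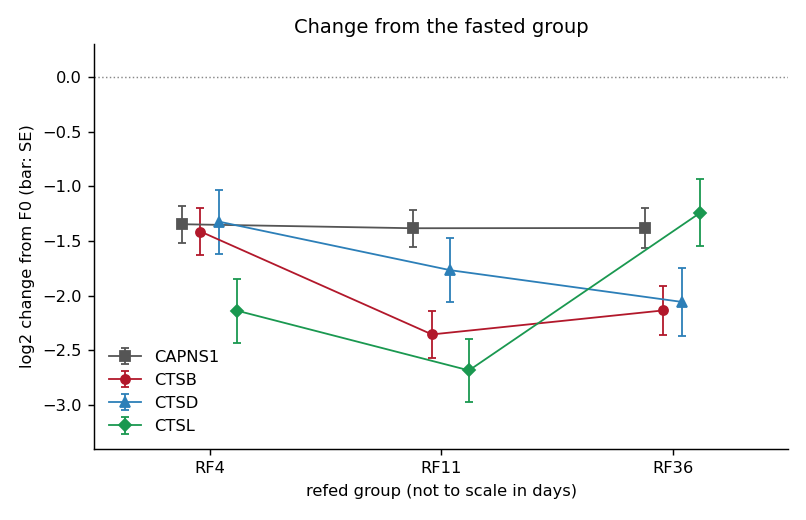
Log2 change from F0 (y axis, mean with the SE from limma) of CAPNS1 and of the brighter probes of CTSB, CTSD and CTSL at RF4, RF11 and RF36 (x axis, groups not spaced by days). CAPNS1 is level from RF4 on, while CTSL is lowest at RF11, at -2.68, and stands at -1.24 at RF36.

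Over the 23 arrays, which share the feeding groups and the scaling, the 9 members that differed across groups had pairwise correlations of 0.38 to 0.99 with a median of 0.76. Both CTSL probes followed each other at 0.99, both CTSD probes at 0.99 and both CTSB probes at 0.84. The correlations of calpain_1 and calpain_2 with these 9 lay between -0.21 and 0.32. Among 1092 other named probes, the 5 most like calpastatin over the 23 arrays (Pearson correlation) were those of SERC1 (serine incorporator, 0.937), a transposase-like transcript (0.931), LOC100136387 (cardiac hormone, 0.926), CD2BP2 (0.916) and LGG-1 (0.910), the last named after the nematode autophagy protein of the LC3 and GABARAP family. Among the probes most like the one named cathepsine were ZNF91 (0.923), SP2 (0.911), METTL5 (0.911) and TIMM22 (0.908). Of these 1092, 1060 are named in the study's list of selected probes.

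Of 6 probes matched by name words for lysosomal proteins and cathepsin inhibitors, 5 were higher in F0 than in C0, 5 fell at RF4 and 6 at RF11 and RF36. The 6 include BLOC1S1, which is named for lysosome-related organelles and is not itself a lysosomal enzyme or cathepsin inhibitor. PSAP, the precursor of the saposins that help lysosomal enzymes degrade lipids, differed by 2.08 on the log2 scale between F0 and C0, F0 being higher (adjusted p = 0.000166 by limma), and its change at RF4 was -0.66 (adjusted p = 0.157). CST6, a cystatin that inhibits cysteine proteases of the lysosome, was 0.83 higher in F0 (adjusted p = 0.0163). This probe was dim, with group means of -1.62 in F0 and -2.45 in C0, which limits how well its difference was measured. Of 12 probes of the ubiquitin ligases, autophagy proteins and proteasome, 10 were higher in F0 than in C0 and all 12 fell at RF4, at RF11 and at RF36. FBXO32, the muscle ubiquitin ligase atrogin-1, differed by 3.62 between F0 and C0 (adjusted p = 0.000453). All 18 are probes that the study selected on these arrays, so their counts are not independent evidence. For the cytoskeletal proteins that calpains cut, such as desmin and titin, no tested probe carried a name.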

How the data were processed

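RNA from fast muscle of 23 rainbow trout was hybridised to 1-colour Agilent arrays, 1 fish per array, on 3 slides that each held several groups. The deposited intensity values are the processed signals of Agilent Feature Extraction 10.7.3.1, already background-subtracted by the authors' software. The authors also deposited a table of log2 values, normalized in GeneSpring, which served as an alternative. Control spots and the 145 outlier-flagged spots were left out, spots of a probe were averaged, log2 was taken and each array's 75th percentile subtracted. Of 60195 probes, 34200 were tested, which had no missing value and, in at least 1 group, 4 or more arrays with the probe well above background. The share of spots well above background was 44.8 to 66.8% per array, and the number of arrays limits the precision. Group means were fitted with limma 3.58.1 in R 4.3.3 over all 23 arrays, with empirical Bayes moderation and Benjamini-Hochberg adjustment over all probes tested, and the code was tested on simulated data. Pair differences used an exact two-sided permutation test over fish. Members and gene lists were chosen with earlier results of these data known. Full values are given for the probe of each gene that was brightest over the 23 arrays. The genes most like a member are given for the brightest calpain system probe and the brightest cathepsin probe. Lists were matched by words in probe names. The alternatives covered the scaling, background correction, filter, slide, replicate block, samples in the model, threshold and leaving out each array. The study's heat map file was used for names and for matching arrays only.

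Same-numbered fish of different groups were different animals. No probe sequence or genome position was used here. One gene among those most like the probe named cathepsine is not reported here.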

Additional observations from a re-analysis of the deposited data

How the results depend on the processing

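Of 99 member differences, 43 passed the threshold, 37 of these passed under every alternative run and 6 were lost under at least 1. None of the 43 reversed direction, and 4 others were gained under at least 1 alternative. Some differences that were not called changed sign, such as that of calpain_2 in F0 against C0. The count in RF11 against RF4 went from 1 to 0 with array median scaling, with the authors' deposited values, with no filter on dim probes, with the replicate block and with an adjusted p under 0.01, and the count in RF4 against C0 from 3 to 0 with only the 2 groups compared in the model and with an adjusted p under 0.01. With 1 array left out at a time, the counts were 9 to 9 across groups, 8 to 9 in F0 against C0, 8 to 9 in RF4 against F0, 9 to 9 in RF11 and in RF36 against F0, 0 to 1 in RF11 against RF4, 2 to 2 in RF36 against RF11, 2 to 4 in RF4 against C0, 2 to 3 in RF11 against C0 and 0 to 0 in RF36 against C0. The other counts stayed within 1.5 times. The cause of these changes was not tested. With only the 2 groups compared in the model, F0 against C0 gave 7 calls, without the CTSL probes. The replicate block gave 8 calls in F0 against C0, without the dimmer CTSL probe, and 2 in RF4 against C0. No source ties fish of the same number in different groups to each other, and their deviations correlated at -0.322 to 0.347 (median 0.108 over 33 pairs, against -0.00992 for different numbers), so the numbers were not taken as pairs. The dimmer CTSB probe was not well above background on 3 arrays and was left out by the filter that required this on all arrays. Depth in the sequencing sense does not apply, and 4 or 5 fish a group limit the precision.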
